A study of Mus musculus with 4 samples.

Results

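The contactins and the contactin-associated (Cntnap) genes are families of neuronal adhesion molecules. Here, 9 of them were followed in cells sorted to enrich interneurons, with and without *Dnmt1*: *Cntn1*, *Cntn2*, *Cntn3*, *Cntn4*, *Cntn5*, *Cntn6*, *Cntnap1*, *Cntnap2* and *Cntnap4*. The members were selected by gene name, and all 9 were found among the 56883 genes of the deposited table. Cells with the red reporter tdTomato were taken by flow sorting from the mouse basal telencephalon of E14.5 embryos, where somatostatin (SST)-positive interneurons pass on their way to the cortex. Control cells were of the genotype *Sst-Cre/tdTomato* and *Dnmt1* KO cells of the genotype *Sst-Cre/tdTomato/Dnmt1 loxP2*, with 2 libraries each, and both genotypes thus carried the *Cre* and the reporter. *Cre* was expressed from the *Sst* locus, so *Dnmt1* was deleted, and tdTomato switched on, in cells that had begun to express *Sst*. Each library was made from cells of several pooled embryos whose sex was not distinguished, so single embryos were not compared. The question was which genes change their expression when the DNA methyltransferase DNMT1 is lost in these migrating cells, which the paper describes as postmitotic. Markers of dividing cells and of radial glia were also counted in the libraries, as given below.

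Contactins are cell surface proteins made of immunoglobulin-like and fibronectin type III domains and held in the membrane by a lipid (GPI) anchor. Cntnap proteins, also called Caspr proteins, are related to neurexins and cross the membrane once, with a short tail inside the cell that binds cytoskeletal adaptors. The families work in pairs: contactin-1 with Caspr at the paranodes that flank the nodes of myelinated axons, and contactin-2 (TAG-1) with Caspr2 at the neighbouring juxtaparanodes, where potassium channels are gathered. Before myelin forms, contactins guide axons and hold them together, and contactin-2 is a marker of the axons that leave the cortex in the embryo. *Cntnap4* is known for its role at the synapses of cortical interneurons.

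The libraries held 6970247 to 8376711 recovered reads. *Sst* was counted at 5580 and 5963 in control and at 8303 and 7825 in *Dnmt1* KO libraries. *Dnmt1* was counted at 2238 and 2341 in control and 2164 and 2210 in *Dnmt1* KO libraries. Its floxed exons were not counted separately, so these values are no check of the deletion. Of 10 interneuron markers, 9 rose in *Dnmt1* KO cells, and their summed normalized count was 19876 to 20157 in control and 29201 to 29524 in *Dnmt1* KO libraries. Markers of other cells fell. The summed counts went from 2668 to 2757 in control to 1370 to 1514 in *Dnmt1* KO libraries for 8 pallial excitatory markers, from 10148 to 10242 to 6024 to 6226 for 8 radial glia markers, from 5777 to 5931 to 4124 to 4176 for 8 markers of dividing cells, from 2231 to 2411 to 560 to 568 for 8 blood markers, and from 441 to 492 to 201 to 214 for 8 vascular and microglia markers. The sums of 7 oligodendrocyte lineage markers overlapped, at 390 to 396 in control and 328 to 401 in *Dnmt1* KO libraries, with 0 of 6 tested genes called. No marker was at 0 in all 4 libraries. By limma, 7 of 8 excitatory, 6 of 8 radial glia, 7 of 8 dividing cell, 6 of 6 tested blood and 6 of 7 tested vascular and microglia markers fell, while the radial glia marker *Sox2*, which interneurons can also express, rose. The part of these cells in the results on contactins was not tested, and in bulk libraries fewer cells of a type and less RNA per cell cannot be told apart.

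DNMT1 copies methyl groups onto the cytosines of CpG dinucleotides, and the start sites of the contactin genes differ widely in how many CpGs they hold. DNA methylation was not measured in these libraries. The paper also sequenced methylation in sorted cells of both genotypes from the same tissue, and those data were not used here. The sequences are shown only to place the expression values beside the DNA on which the enzyme acts. Promoter windows of 300 bases, from 250 bases before to 50 bases after an annotated start, were taken from RefSeq on the build GRCm38.p6 and matched 7 of the 9 members by symbol, namely *Cntn1* to *Cntn6* and *Cntnap2*. The letters CG were searched as a motif that reads the same on both strands, and 94.6% of 32851 RefSeq windows held at least 1, with a median of 7. The windows of *Cntn5* and *Cntn1*, which rose in *Dnmt1* KO cells, and of *Cntn2*, which fell, are printed from 5′ to 3′ on the strand of the gene, with each CG in capitals. The *Cntn5* window lies at chr9:10904726-10905025 on the minus strand, that of *Cntn1*, the first of its 3 annotated starts, at chr15:92050915-92051214 on the plus strand, and that of *Cntn2* at chr1:132542891-132543190 on the minus strand.
*Cntn5*: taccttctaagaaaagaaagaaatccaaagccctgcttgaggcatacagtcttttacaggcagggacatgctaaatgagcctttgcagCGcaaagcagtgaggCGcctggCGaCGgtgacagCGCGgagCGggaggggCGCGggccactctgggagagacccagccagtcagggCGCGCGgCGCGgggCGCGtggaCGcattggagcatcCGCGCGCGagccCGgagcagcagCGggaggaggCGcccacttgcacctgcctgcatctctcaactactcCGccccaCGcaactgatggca
*Cntn1*: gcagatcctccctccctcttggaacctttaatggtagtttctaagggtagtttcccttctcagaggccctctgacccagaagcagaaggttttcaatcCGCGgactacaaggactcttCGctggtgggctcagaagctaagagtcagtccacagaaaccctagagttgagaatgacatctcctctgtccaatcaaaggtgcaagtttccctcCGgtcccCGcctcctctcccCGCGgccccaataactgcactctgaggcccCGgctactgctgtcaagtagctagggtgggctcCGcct
*Cntn2*: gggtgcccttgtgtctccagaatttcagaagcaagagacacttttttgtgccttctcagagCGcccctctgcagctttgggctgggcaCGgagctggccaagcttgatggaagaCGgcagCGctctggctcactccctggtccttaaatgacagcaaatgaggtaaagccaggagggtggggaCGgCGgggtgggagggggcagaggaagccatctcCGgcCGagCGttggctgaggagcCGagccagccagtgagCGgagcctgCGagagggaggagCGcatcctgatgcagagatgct
The *Cntn5* window held 26 CpGs, as many as or more than which were found in 16.9% of all windows. The *Cntn2* window held 13 and the first *Cntn1* window 9, while the other *Cntn1* starts held 5 and 4. Among members that were not called, the CpG number was 0 for *Cntn3*, 4 for *Cntn6*, and 4 and 12 for the 2 starts of *Cntn4*. The 2 starts of *Cntnap2* held 14 and 3. The windows of *Cntn3* and *Cntn4*, and the second of *Cntnap2*, lie well inside the annotated spans of these genes. The outermost starts of *Cntn3* and *Cntn4* were therefore not counted. Of the genes that rose, only *Cntn5* and *Cntn1* had windows, and none was available for *Cntnap4*. The first *Cntn1* window lay above the median of 7 and the other *Cntn1* starts below it. Which start was used in these cells cannot be read from a count per gene, and a link of CpG number with expression was not tested.

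Of the 9 members, 3 rose and 1 fell in *Dnmt1* KO cells. *Cntnap4*, *Cntn5* and *Cntn1* were higher, with log2 fold changes of 0.97, 0.81 and 0.34, and *Cntn2* was lower, with -0.55. *Cntnap2*, *Cntn3*, *Cntn4*, *Cntn6* and *Cntnap1* did not pass the test, and all 5 of their log2 fold changes were below 0. The log2 fold change (log2FC, *Dnmt1* KO over control) is on the scale log2(normalized count + 1). The limma test covered 14323 genes whose normalized counts averaged 10 or more, and a gene was called at a Benjamini-Hochberg adjusted p below 0.05. All 9 members passed this filter. Of all genes tested, 17.3% were called, 8.3% as higher and 8.99% as lower after *Dnmt1* loss, and this is the background for the 4 of 9 members. The share of all genes called was 17.6% with edgeR, 10.5% with DESeq2, 18.1% and 18.9% after removal of the transcript length and GC trend and of the genomic span trend, 20.6% with the replicate number as a block, 0.0% without a variance trend, and 11.5%, 10.6%, 15.4% and 14.7% without control replicate 1, control replicate 2, *Dnmt1* KO replicate 1 and *Dnmt1* KO replicate 2. The median log2FC was -0.17 over the members and -0.0033 over all genes tested. For 7 members, the normalized counts of the genotypes did not overlap, as for 57.4% of all genes tested. With 2 libraries per genotype, an exact permutation test of a single value cannot go below 0.333, and limma's p-values borrow their estimate of variance from the other genes.

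**Figure D1:**
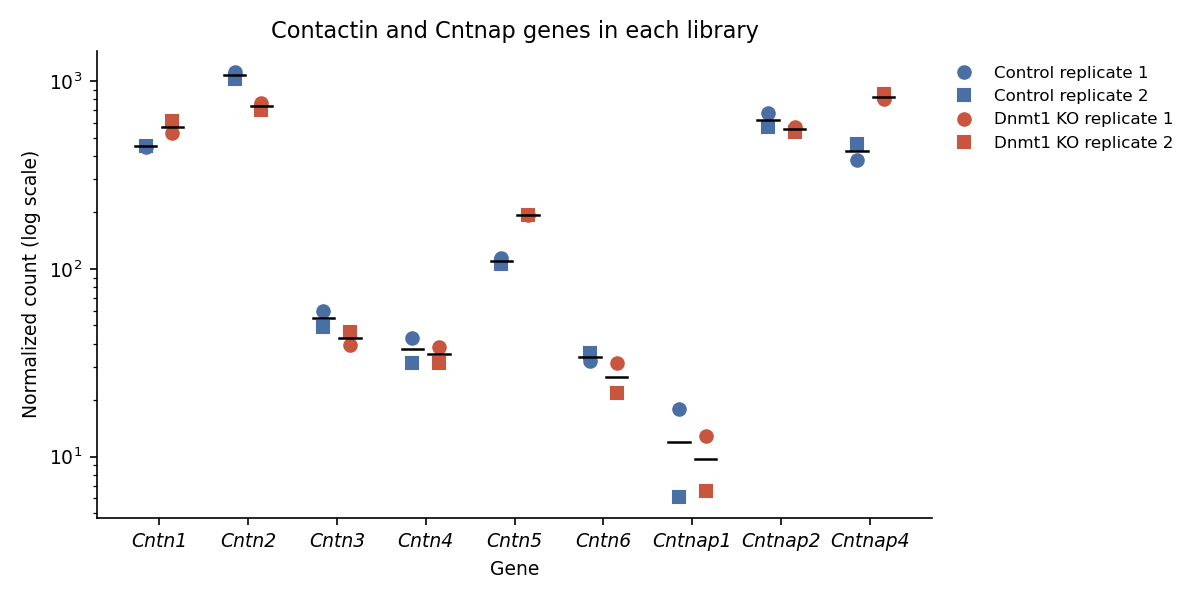
Normalized counts (log scale) of the 9 genes in each of the 4 libraries, blue for control and red for *Dnmt1* KO, with a circle for replicate 1, a square for replicate 2 and a bar for the mean of each genotype. *Cntn1*, *Cntn5* and *Cntnap4* lie higher and *Cntn2* lower in both *Dnmt1* KO libraries, and *Cntnap1* lies between 6.13 and 17.9 in all 4.

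Among the contactins, *Cntn2* was the most abundant. It lies on chromosome 1 from 132437165 to 132470994 (GRCm39, minus strand), a compact gene of 24 exons. *Cntn2* was counted at 1121 and 1031 in the control and at 762 and 707 after *Dnmt1* loss. Both *Dnmt1* KO libraries lay below both control libraries, and the gap between genotypes was wider than that between replicates. The means were 1076 ± 63.8 (SD, n = 2) and 735 ± 39.3 (SD, n = 2), log2FC -0.55 (SE 0.076, 95% interval -0.71 to -0.39) with an adjusted p of 0.000131 from limma. The fall held with DESeq2 and edgeR on recovered reads and when 1 library was omitted, which gave -0.61 to -0.49 and an adjusted p of at most 0.0033 in limma. *Cntn2* fell together with the pallial excitatory markers, whose median log2FC was -1.02, and the part of such cells in the *Cntn2* count was not tested.

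*Cntn5* encodes contactin-5 (NB-2), a binding partner of Caspr4, the product of *Cntnap4*. The gene covers 1246 kb of chromosome 9, from 9658790 to 10904780 on the minus strand. *Cntn5* was counted at 115 and 106 in control and at 193 and 194 in *Dnmt1* KO libraries. The *Dnmt1* KO libraries were nearly equal and lay above both control libraries. From 110 ± 5.92 (SD, n = 2) to 194 ± 0.816 (SD, n = 2), the log2FC was 0.81 (SE 0.15, 95% interval 0.50 to 1.12, adjusted p by limma 0.00129). It was 0.67 once the trend of each library over genomic span was removed, and limma's adjusted p stayed at or below 0.0136 when 1 library was omitted.

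*Cntn1*, whose product joins Caspr at paranodes and serves earlier as a neurite outgrowth molecule, lies on chromosome 15 from 91948938 to 92240393 on the plus strand. *Cntn1* was counted at 447 and 453 in control and at 532 and 611 in *Dnmt1* KO libraries. The genotypes did not overlap, but the *Dnmt1* KO libraries differed from each other by more than the control libraries did. The log2FC was 0.34 (SE 0.092, 95% interval 0.14 to 0.54, adjusted p by limma 0.0194). This call depended on single libraries, as limma's adjusted p was 0.0752 without control replicate 1, 0.0638 without control replicate 2 and 0.199 without *Dnmt1* KO replicate 2, and DESeq2's Wald test gave an adjusted p of 0.0877. The mean log2 level of the 10 interneuron markers was 0.49 higher in *Dnmt1* KO libraries. Taking this value off every gene leaves any smaller rise below 0, that of *Cntn1* at -0.15. The markers include *Lhx6*, *Sox6*, *Satb1*, *Dlx1* and *Dlx2*, which the paper reports as raised by *Dnmt1* deletion. The value is thus not a measure of interneuron content alone.

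The other contactins were counted at low levels and did not pass the test. *Cntn3* (BIG-1) had 60.0 and 49.0 normalized counts in control and 39.5 and 45.9 in *Dnmt1* KO libraries, log2FC -0.34 (95% interval -0.89 to 0.20, adjusted p by limma 0.408). *Cntn6* (NB-3) had 32.2 and 35.7 in control and 31.6 and 21.9 in *Dnmt1* KO libraries, log2FC -0.36 (95% interval -1.05 to 0.34, adjusted p by limma 0.513). Both genes lay lower in each *Dnmt1* KO library, by amounts within what the spread of genes at this level allows. *Cntn4*, whose product binds the amyloid precursor protein, had 43.0 and 31.6 in control and 38.5 and 31.7 in *Dnmt1* KO libraries, and the genotypes overlapped (log2FC -0.077, 95% interval -0.72 to 0.56, adjusted p by limma 0.899). These 3 genes had 20 to 67 recovered reads per library, and their intervals do not exclude a change as large as that of *Cntn2*. Omission of 1 library moved the log2FC of *Cntn6* from -0.61 (without *Dnmt1* KO replicate 1) to -0.10 (without *Dnmt1* KO replicate 2).

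*Cntnap4* (Caspr4) changed most among the members. It lies on chromosome 8 from 113296608 to 113610662 on the plus strand. *Cntnap4* was counted at 382 and 466 in control and at 801 and 851 in *Dnmt1* KO libraries. Each *Dnmt1* KO library held far more than either control library. The means were 424 ± 59.0 (SD, n = 2) and 826 ± 35.5 (SD, n = 2), log2FC 0.97 (SE 0.097, 95% interval 0.76 to 1.17, adjusted p by limma 6.46e-06). Omitting 1 library at a time gave 0.83 to 1.11, and it was 1.02 with transcript length and GC trends taken out per library. *Cntnap4* rose together with the interneuron markers, whose median log2FC was 0.51, and the part of such cells in the *Cntnap4* count was not tested.

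*Cntnap2* (Caspr2), the partner of contactin-2, is the longest member, with 2245 kb on chromosome 6 from 45036291 to 47281147. *Cntnap2* was counted at 677 and 570 in control and at 568 and 540 in *Dnmt1* KO libraries. The *Dnmt1* KO libraries lay below the control libraries, but control replicate 2 and *Dnmt1* KO replicate 1 were almost level. The log2FC of -0.17 (SE 0.093, 95% interval -0.36 to 0.033) did not pass the test (adjusted p by limma 0.255), and it was -0.041 without control replicate 1 and -0.29 without control replicate 2. With the genomic span trend taken out per library, *Cntnap2* was called lower, with -0.37 and an adjusted p of 0.00977 from limma. *Cntnap1* (Caspr), the partner of contactin-1 at paranodes, had 6 to 20 recovered reads per library, or 17.9 and 6.13 normalized counts in control and 12.8 and 6.56 in *Dnmt1* KO libraries. Its replicates differed by more than the genotypes, and its interval of -1.47 to 1.11 on the log2 scale does not exclude changes of about 1 log2 unit in either direction. *Cntnap1* is overlapped on the opposite strand by 3 genes, of which *Ezh1* had a mean normalized count of 153, and it was not stated whether reads were counted by strand, so its few reads are uncertain. The most abundant gene on the opposite strand was *Rbpj-ps3* for *Cntnap2*, with a mean of 26.6. For every other member, no gene on the opposite strand exceeded a mean of 4.56.

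**Figure D2:**
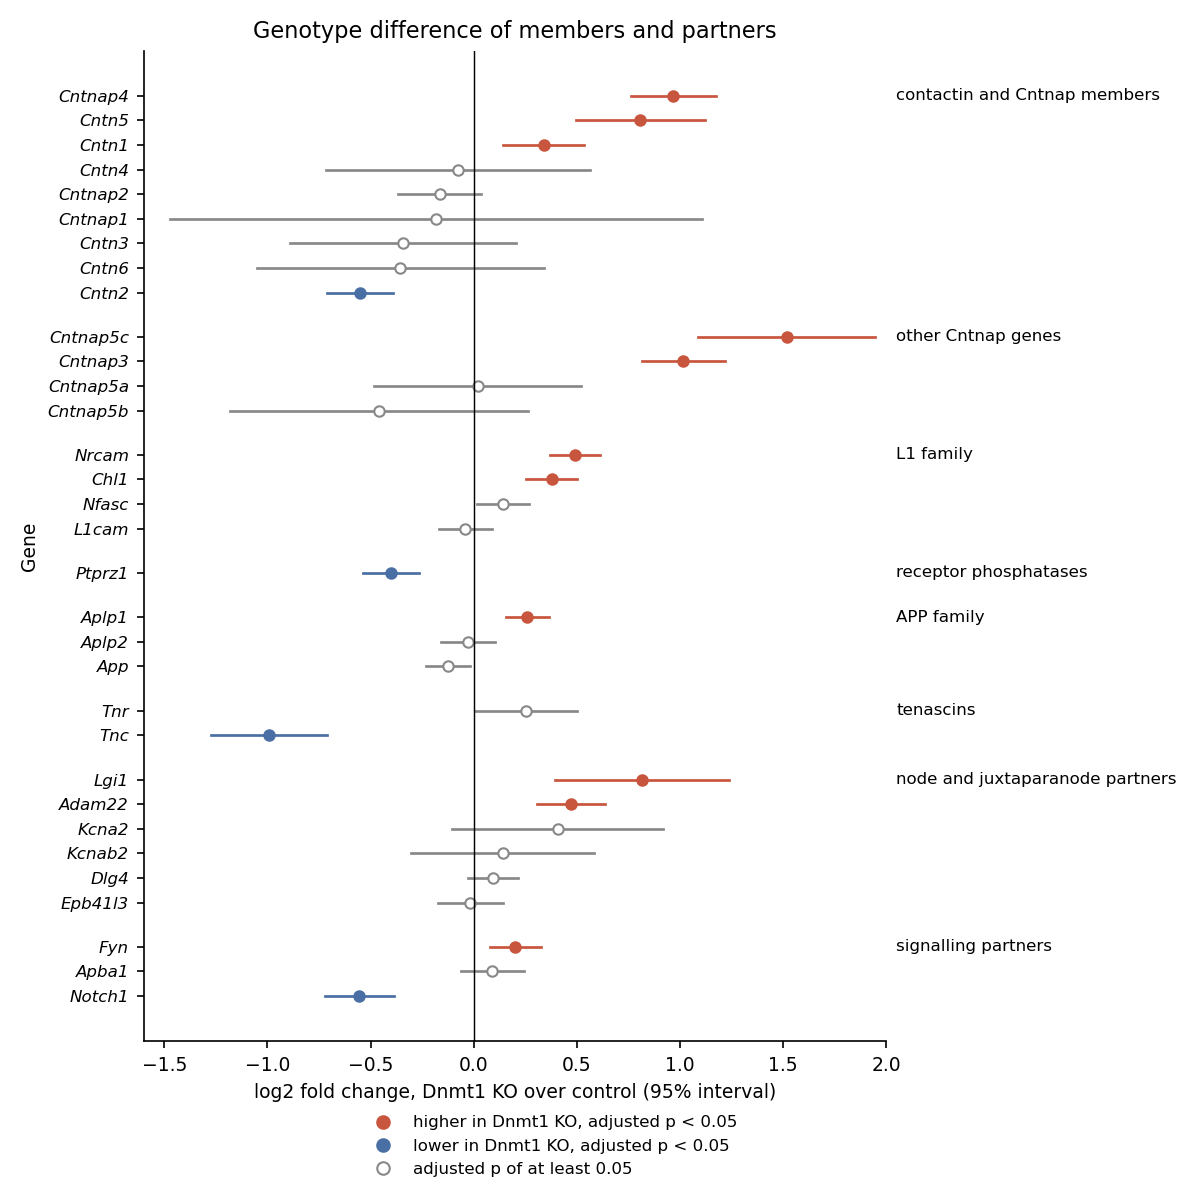
Log2 fold change of *Dnmt1* KO over control from limma (points) with its 95% interval (lines) for the 9 members and the 23 tested genes of the partner lists, filled red where higher and blue where lower at an adjusted p below 0.05, and open otherwise. *Cntnap4* (0.97) and *Cntn2* (-0.55) mark the ends of the members, and *Cntnap5c* (1.52) and *Tnc* (-0.99) those of the partners.

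Normalized counts were divided by the length of the transcript with the longest coding sequence to compare levels between members. In control cells, *Cntn2* came first with 145 ± 8.56 normalized counts per kb of transcript (SD, n = 2), followed by *Cntnap4* with 80.5, *Cntn1* with 67.0, *Cntnap2* with 63.3, *Cntn5* with 17.3, *Cntn3* with 9.59, *Cntn6* with 8.28, *Cntn4* with 5.91 and *Cntnap1* with 1.80. The control libraries of *Cntn1* and *Cntnap2* overlapped in level, as did those of *Cntn3* and *Cntn6*. In *Dnmt1* KO cells, *Cntnap4* came first with 157 ± 6.74 normalized counts per kb (SD, n = 2), ahead of *Cntn2* with 98.7 and *Cntn1* with 85.0. The other members followed in the order of the control cells, and *Cntn6* overlapped with *Cntn3* and with *Cntn4*. The places of *Cntn1*, *Cntnap2* and *Cntnap4* depend on the length used, as the exon union of *Cntn1* measures 17052 bp and its chosen transcript 6724 bp: per kb of exon union, the control means were 111 for *Cntn2*, 60.7 for *Cntnap2*, 44.5 for *Cntnap4* and 26.4 for *Cntn1*. In *Dnmt1* KO cells they were 86.8 for *Cntnap4*, 75.9 for *Cntn2*, 53.9 for *Cntnap2* and 33.5 for *Cntn1*, so *Cntnap4* led there by either length.

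Shares within a library do not depend on how libraries are scaled, but they do depend on the transcript length used. *Cntn2* made up 37.2% and 35.3% of the summed level per kb of the 9 members in control and 23.1% and 21.0% in *Dnmt1* KO libraries. *Cntnap4* made up 18.0% and 22.6% in control and 34.2% and 35.8% in *Dnmt1* KO libraries, so that these 2 genes changed places. The share of *Cntn5* was 4.44% and 4.25% in control and 6.82% and 6.75% in *Dnmt1* KO libraries, and that of *Cntn1* was 16.5% and 17.2% in control and 17.8% and 20.1% in *Dnmt1* KO libraries. The level per kb of *Cntnap4* was 1.06 and 1.53 times that of *Cntnap2* in control and 2.64 and 2.95 times that of *Cntnap2* in *Dnmt1* KO libraries. Such ratios also depend on the length used: per kb of exon union, the control mean of *Cntnap4* (44.5) lay below that of *Cntnap2* (60.7). The level per kb of *Cntn1* was 0.442 and 0.487 times that of *Cntn2* in control and 0.772 and 0.957 times in *Dnmt1* KO libraries. Neither ratio overlapped between genotypes. This follows from the counts above, as the upper gene of each ratio lay higher and the lower gene lay lower in both *Dnmt1* KO libraries. The ratios are therefore no further test. For both, the two-sided exact permutation p was 0.333, the smallest that 2 libraries against 2 can give.

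**Figure D3:**
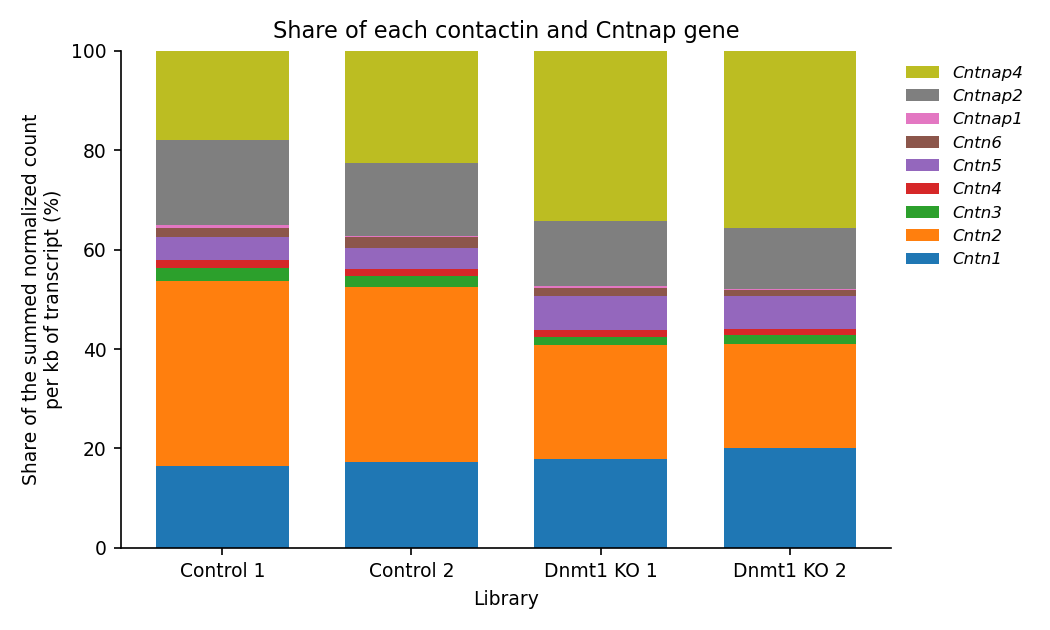
Share (%) of each of the 9 genes in their summed normalized count per kb of transcript, 1 stacked bar per library. The *Cntn2* part is 35.3% to 37.2% in control and 21.0% to 23.1% in *Dnmt1* KO libraries, and the *Cntnap4* part is 18.0% to 22.6% in control and 34.2% to 35.8% in *Dnmt1* KO libraries.

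Most of the members are long genes, and length moved with genotype in these libraries. The genomic spans of all 9 ran from 21.4 kb for *Cntnap1* to 2245 kb for *Cntnap2*, with a median of 371 kb. The median over the 12278 protein-coding genes tested was 28.7 kb, and *Cntn2* spans 33.8 kb. Across those genes, the log2FC rose by 0.071 for each doubling of transcript length and by 0.029 for each doubling of genomic span, while the slopes between libraries of the same genotype were at most 0.0023 in size. Among the 9 members, Pearson's r between the log2 of the span and the log2FC was 0.34, given as a description of genes that share their libraries. The longest members were *Cntnap2* (2245 kb, log2FC -0.17), *Cntn5* (1246 kb, 0.81) and *Cntn4* (1023 kb, -0.077). The shortest, *Cntn2* and *Cntnap1*, had -0.55 and -0.18, and *Cntnap4* with 314 kb had 0.97. Where the length trend came from was not tested. All 4 calls held once trends with transcript length and GC content were taken out (adjusted p by limma at most 0.0463) and once the trend with genomic span was (at most 0.02).

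**Figure D4:**
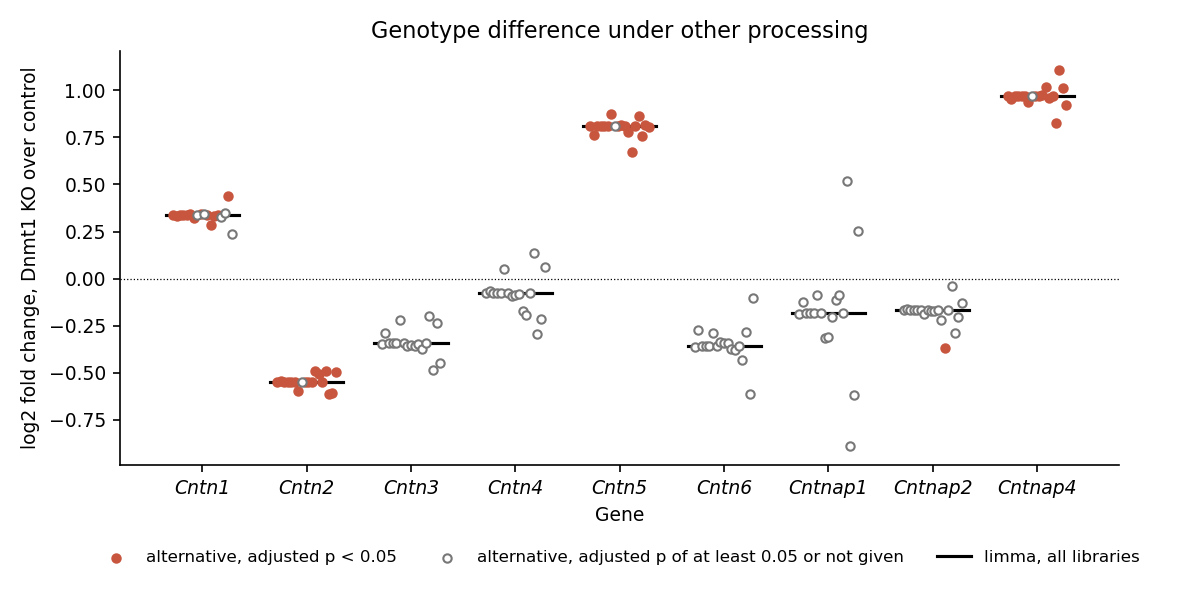
Log2 fold change of each member (vertical axis) in the limma comparison of all libraries (black bar) and under the other settings (points, filled where the adjusted p was below 0.05). The interneuron reference, added after seeing the data, is not shown. *Cntnap4*, *Cntn5* and *Cntn2* keep their direction in all settings shown, at 0.83 to 1.11, 0.67 to 0.87 and -0.61 to -0.49, whereas *Cntn4* and *Cntnap1* lie on both sides of 0.

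The libraries were made from total RNA, and the introns of *Cntnap2* also held reads. Within its span, 22 annotated single-exon genes of the annotation type TEC, which awaits experimental proof, lie on the same strand and outside its exons, covering 2.52% of the gene. These were looked at after the values of *Cntnap2* had been seen. Their summed normalized count was 133 and 126 in the control and 309 and 251 in *Dnmt1* KO libraries, that is, 129 ± 5.49 and 280.0 ± 40.6 (SD, n = 2 each), with a log2 ratio of the means of 1.11. The exons of *Cntnap2* itself had not risen in the same libraries. The part of unspliced *Cntnap2* RNA in these intronic counts was not tested. Of the 22, 7 were abundant enough for the test and 2 were called higher, *Gm43872* and *Gm43879*. *Gm43872* went from 16 and 11 to 51 and 32 recovered reads (log2FC of normalized counts 1.65), although limma gave an adjusted p of 0.0562 when *Dnmt1* KO replicate 1 was omitted. *Gm43879* went from 18.8 and 24.5 to 53.3 and 38.2 (log2FC 1.04), but limma's adjusted p was above 0.05 without control replicate 1, at 0.171, without control replicate 2, at 0.0655, and without *Dnmt1* KO replicate 1, at 0.235. DESeq2 gave *Gm43879* an adjusted p of 0.185, and with transcript length and GC trends taken out its log2FC was 0.39 (adjusted p by limma 0.444). Of all 616 single-exon TEC genes tested, 134 or 21.8% were called higher in *Dnmt1* KO cells and 0 lower, so 2 of 7 lies near the background of such genes. *Cntn3* held 1 such gene, with 0 to 2 reads per library, and no other member held any.

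**Figure D5:**
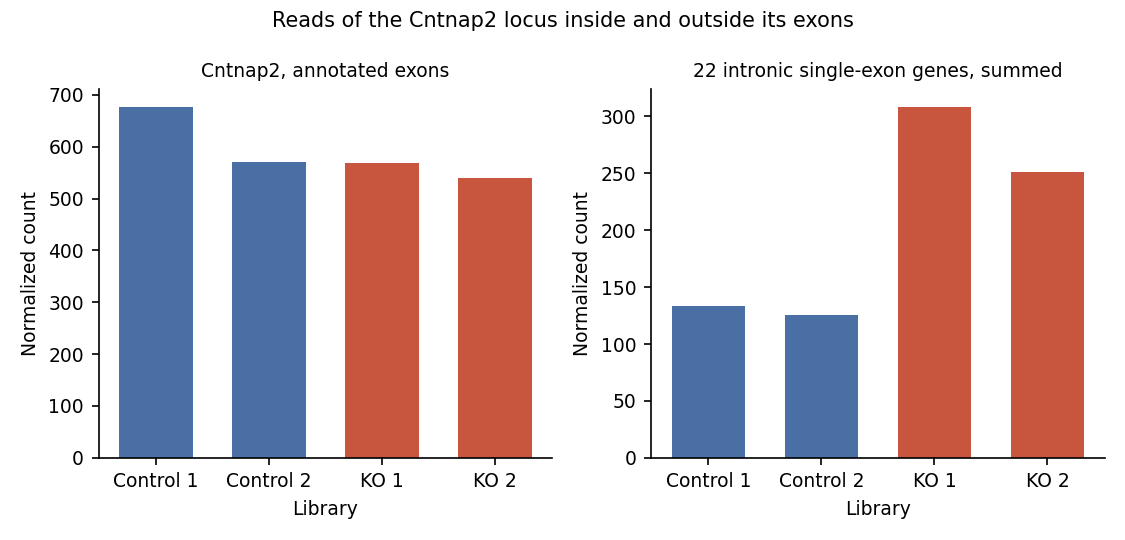
Normalized counts per library of the *Cntnap2* gene (left) and of the 22 single-exon TEC genes in its introns on the same strand, summed (right). The left bars range from 540 to 677 with the *Dnmt1* KO libraries slightly lower, and the right bars are at 126 to 133 in control and 251 to 309 in *Dnmt1* KO libraries.

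Relatives and binding partners of contactins were read from the same comparison. Of 24 such genes in the table, 23 were tested, 8 rose and 3 fell in *Dnmt1* KO cells, with a median log2FC of 0.14, beside the 17.3% called of all genes. *Ptprg*, a receptor phosphatase that binds contactins, was not analysed here. *Kcna1* was below the filter, with 4.37 to 9.84 normalized counts.

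Of the other Cntnap genes, 2 of 4 rose. *Cntnap3* was counted at 332 and 314 in control and at 692 and 620 in *Dnmt1* KO libraries, log2FC 1.02 (SE 0.094, adjusted p by limma 3.19e-06). *Cntnap5c* went from 43.0 and 48.0 to 122 and 142, log2FC 1.52 (SE 0.20, adjusted p by limma 0.0001). These rises lay above both control libraries by far more than the replicates differed. *Cntnap5a* and *Cntnap5b* had log2FCs of 0.021 and -0.46 and did not pass the test. The *Cntnap5* genes are related to each other, and whether they share reads was not tested, so their single values are uncertain.

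The L1 family holds cell adhesion molecules that bind contactins on the same or a facing membrane, and 2 of its 4 members rose. *Nrcam* was counted at 1647 and 1566 in control and 2226 and 2287 in *Dnmt1* KO libraries (log2FC 0.49, adjusted p by limma 2.71e-05). *Chl1*, a partner of contactin-6, was counted at 2445 and 2206 in control and 2962 and 3079 in *Dnmt1* KO libraries (log2FC 0.38, adjusted p by limma 0.000322). With transcript length and GC trends taken out, the log2FC of *Chl1* was 0.22 (adjusted p by limma 0.0161). *Nfasc*, the neurofascin gene, and *L1cam* had log2FCs of 0.14 and -0.040 and did not pass the test.

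The 3 partners that fell belong to different groups, namely receptor phosphatases, tenascins and signalling partners. *Ptprz1*, a receptor phosphatase that binds contactin-1, was counted at 1585 and 1655 in control and 1187 and 1270 in *Dnmt1* KO libraries (log2FC -0.40, adjusted p by limma 0.000463). *Tnc*, the tenascin-C gene of the extracellular matrix, went from 283 and 301 to 159 and 134 (log2FC -0.99, adjusted p by limma 9.57e-05), and *Notch1*, a receptor for which contactin-1 can be a ligand, from 1236 and 1061 to 781 and 778 (log2FC -0.55, adjusted p by limma 0.000179). In the same libraries, 6 of 8 radial glia markers fell (median log2FC of the list -0.82), and the part of such cells in these counts was not tested. *Tnr*, the tenascin-R gene, had log2FC 0.25 (adjusted p by limma 0.154).

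Among genes of the amyloid precursor family, *Aplp1* rose, from 3468 and 3356 to 3993 and 4177 normalized counts (log2FC 0.26, adjusted p by limma 0.00169), while *App* (-0.12) and *Aplp2* (-0.027) did not pass the test. Of 6 tested genes of nodes and juxtaparanodes, 2 rose. *Adam22*, a receptor for the secreted LGI proteins that gather with Kv1 channels, was counted at 653 and 607 in control and 870 and 878 in *Dnmt1* KO libraries (log2FC 0.47, adjusted p by limma 0.000539). *Lgi1*, its ligand, was counted at 96.6 and 143 in control and 250 and 173 in *Dnmt1* KO libraries (log2FC 0.82, adjusted p by limma 0.00995), but without control replicate 1 its log2FC was 0.54 with an adjusted p of 0.118. *Epb41l3*, which encodes the adaptor protein 4.1B that binds Caspr tails, had log2FC -0.016. *Fyn*, a kinase that acts downstream of contactins, had log2FC 0.20 (adjusted p by limma 0.0266), and this call was lost on omission of any 1 library, with 0.0707 to 0.137, and with DESeq2.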

How the data were processed

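Gene expression was read from 4 RNA sequencing libraries, 2 per genotype, grouped and numbered by their sample labels. The deposited signal is a normalized count, which the authors obtained from Trim Galore, STAR (GRCm39) and Salmon and then scaled with DESeq2 size factors. Every non-zero value (89965, 100%) equalled a whole number of reads within 0.0001 read after multiplication by its library's factor, so reads were recovered for the count tests, of which edgeR called 2528 genes. P-values rest on the spread between libraries of pooled embryos, not between single embryos. RNA was isolated from 50000 cells pooled per genotype, and it was not stated whether the 2 libraries of a genotype held separate embryos.

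limma (3.58.1, R 4.3.3, moderated test with a mean-variance trend) compared the genotypes over the entire table on log2(normalized count + 1), keeping 14323 genes that averaged 10 or more and adjusting by Benjamini-Hochberg over all of them. Fold changes of low genes are understated on this scale. edgeR 4.0.16 and DESeq2 1.42.0 were run on recovered reads, and DESeq2 gave *Cntnap1* no adjusted p. GENCODE models of GRCm39 supplied positions and lengths and covered 56322 of 56883 genes. The model fits were run on simulated counts with the same spread setting for every gene, which checks the code and not the calls made here. Members, lists and tests were chosen with earlier results of these data known. All members and called partners were named, and the uncalled partners and the intronic genes in the text were picked after their values were seen.

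Other settings were pseudocounts of 0.5 and 10, minimum means of 1 and 50 or none, TMM, quantile normalization, limma without the trend, limma-voom, both count tests, splines (5 degrees of freedom) on length and GC or on span, a replicate block, and omission of single libraries, where the lone library is taken to vary like the rest. The interneuron reference and intronic genes were added after seeing the data.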

Additional observations from a re-analysis of the deposited data

How the results depend on the processing

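Under 18 alternatives, *Cntn2*, *Cntn5* and *Cntnap4* kept their direction, and their calls held except in limma without a variance trend. That setting called 0 genes of all 14323, 0 members and 0 partners (its adjusted p began at 0.0592), although an unadjusted p below 0.05 was reached by 3339 genes, 4 members and 10 partners. DESeq2 called 1327 genes and 3 members, without *Cntn1*, where edgeR called 2528 genes and 4 members. Leaving out 1 library gave 1525 to 2205 genes, 3 to 4 members and 9 to 11 partners, against 2476, 4 and 11 with all libraries. *Cntn4* changed sign with quantile normalization, to 0.052, and had -0.29 to 0.14 with each library left out, and *Cntnap1* had -0.89 to 0.52. *Dnmt1* changed sign to 0.018 after removal of the trend over transcript length and GC content. *Cntn1* changed sign to -0.15 when the rise of the interneuron markers, the same 0.49 for every gene, was taken off. Some of these markers are genes that the paper reports as raised by the deletion itself. With the 0.49 taken off, *Cntnap4* was at 0.47, *Cntn5* at 0.32 and *Cntn2* at -1.04. The cause of these changes was not tested. With the replicate block, 2957 genes, 4 members and 11 partners were called. The labels tie replicate 1 of the genotypes together by number only, and the deviations from the genotype means of the libraries numbered 1 had a Pearson correlation of 0.016 over 8418 genes. Depth limits *Cntn3*, *Cntn4*, *Cntn6* and *Cntnap1*, which a minimum mean of 50 left without a value.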
